A study of Mus musculus with 6 samples.

Results

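The untreated libraries of mouse KP cells were described for what these cells express before a hairpin against Npm1 is switched on. They are the 3 libraries of the series made without doxycycline (0 ng/ml), out of 6 in all, and were chosen by their labels alone. Each comes from a different stable line, called line 3, line 4 and line 5 here after its hairpin (shNpm1-3, shNpm1-4 and shNpm1-5). Every line carries the pLKO.1-Tet on vector, from which the tetracycline antibiotic doxycycline switches the hairpin RNA on, and every line went through transfection and puromycin selection, so that no library comes from cells free of vector or hairpin. The labels name the cells only as KP, give no tissue of origin and do not say whether a line is 1 clone. The other 3 libraries, from the same lines with 100 ng/ml doxycycline, are not compared here.

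Cultured cells keep part of the expression program of the tissue they come from. Epithelia that form a single layer build their intermediate filaments from keratins 7, 8, 18 and 19, layered epithelia from other keratins under the control of the transcription factor p63, and mesenchymal cells from vimentin. The gut tube is patterned by transcription factors that mark its regions, among them Nkx2-1 in the lung, Cdx2 in the intestine, Pdx1 in the pancreas and duodenum, and the Foxa and Hnf factors across several endodermal organs. Npm1 encodes nucleophosmin, an abundant nucleolar protein that acts in ribosome assembly.

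Total RNA was sequenced, and the values are numbers of reads per annotated gene. The reads in genes numbered 26756552 in line 3, 25270163 in line 4 and 26391521 in line 5. A further 45% to 46% of the reads in the files were assigned to no gene, most of them reads aligned to more than 1 place (33.1% to 34.6% of all reads). Levels are given as CPM, a gene's reads scaled to a fixed total of reads in genes. Since a long gene yields more reads than a short one at the same level, levels of different genes are compared in TPM, which also divides by transcript length. The length is that of the longest annotated transcript. Which transcripts the cells make was not tested, so that every comparison per length depends on this choice. A gene said to lead a list is the one with the highest mean CPM, which ranks reads and not levels per length. A count of 3 reads corresponds to 0.112 to 0.119 CPM in 1 library and to 0.0383 CPM over the 3 libraries together. The libraries were not copies of each other, with a chi-square of counts per degree of freedom of 8.23 to 23.8 between pairs. Each line has 1 untreated library, so that a difference between lines has no replicate check, no p-value is given, and ± is the standard deviation (SD) over the 3 lines.

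Of 48526 gene identifiers, 12187 (25.1%) reached 1 CPM in all 3 libraries and 24005 (49.5%) had no read in any of them. Among 21760 protein-coding genes, 11371 (52.3%) reached that level and 5498 (25.3%) had no read. Zero reads over the 3 libraries allow a level of up to 0.0383 CPM, counting error only. Of the 12187 genes at 1 CPM, 3415 had a mean between 1 and 10 CPM, 6917 between 10 and 100, 1721 between 100 and 1000, and 134 of 1000 or more. The median over all identifiers was 0.0125 CPM and over protein-coding genes 2.03 CPM. Protein-coding genes took 98.7% ± 0.0855 (SD, n = 3) of the reads in genes.

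A small number of genes supplied much of the RNA. The gene with the highest mean CPM took 3.41% ± 0.374 of the reads in genes, the first 10 took 9.08% ± 0.557 and the first 100 took 28.8% ± 0.802 (SD, n = 3 each), and 486 genes together took 50% of them. Of the first 100 genes, 44 encode proteins of the cytosolic ribosome and held 10.7% ± 0.397 of the reads, and 7 encode factors of translation or of nascent chains and held 5.43% ± 0.493. Genes of calcium-binding proteins of the annexin and S100 kind (6 genes) held 2.13% ± 0.077, genes of glycolysis (6 genes) 1.82% ± 0.115, and keratin genes (4 genes) 1.62% ± 0.149. The sorting of the 100 genes into these classes was made after their levels were seen.

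Eef1a1, on chromosome 9 (mm10, 78478449 to 78489151), encodes the elongation factor that brings aminoacyl-tRNA to the ribosome and stood first on either scale. It was at 38402, 31508 and 32446 CPM in lines 3, 4 and 5, with a mean of 34118 ± 3739 CPM and 35614 ± 3738 TPM. S100a6, on chromosome 3, encodes the calcium-binding protein calcyclin and came next by CPM, at 9523, 8703 and 10056 CPM. Per length S100a6 was also next among protein-coding genes, with 22544 ± 1421 TPM. Among the other genes of the first 20 by CPM were the ribosomal protein genes Rplp0, Rps3, Rpl32, Rps12, Rpsa, Rps18 and Rps9, the ribosome-bound scaffold gene Rack1, the chaperone gene Hsp90ab1, the keratin genes Krt7, Krt8 and Krt18, the thymosin gene Tmsb4x, the tumor protein gene Tpt1, the lactate dehydrogenase gene Ldha, the annexin gene Anxa2 and the serpin gene Serpinb6a. Of the 20, 10 were also among the first 20 of all identifiers by TPM. Tmsb4x, whose product binds monomeric actin, followed S100a6 among protein-coding genes per length, with 11786 ± 553 TPM. The ranks per length, and this overlap, depend on the longest annotated transcript. It was 4456 bases for Rack1, at rank 56 by TPM, and 3183 bases for Rps3, at rank 38. For Serpinb6a, 29.3% of the annotated exon length is shared with another gene, and for Rpl32 20.04%, and reads in such stretches cannot be told apart where strand is not known.

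**Figure D1:**
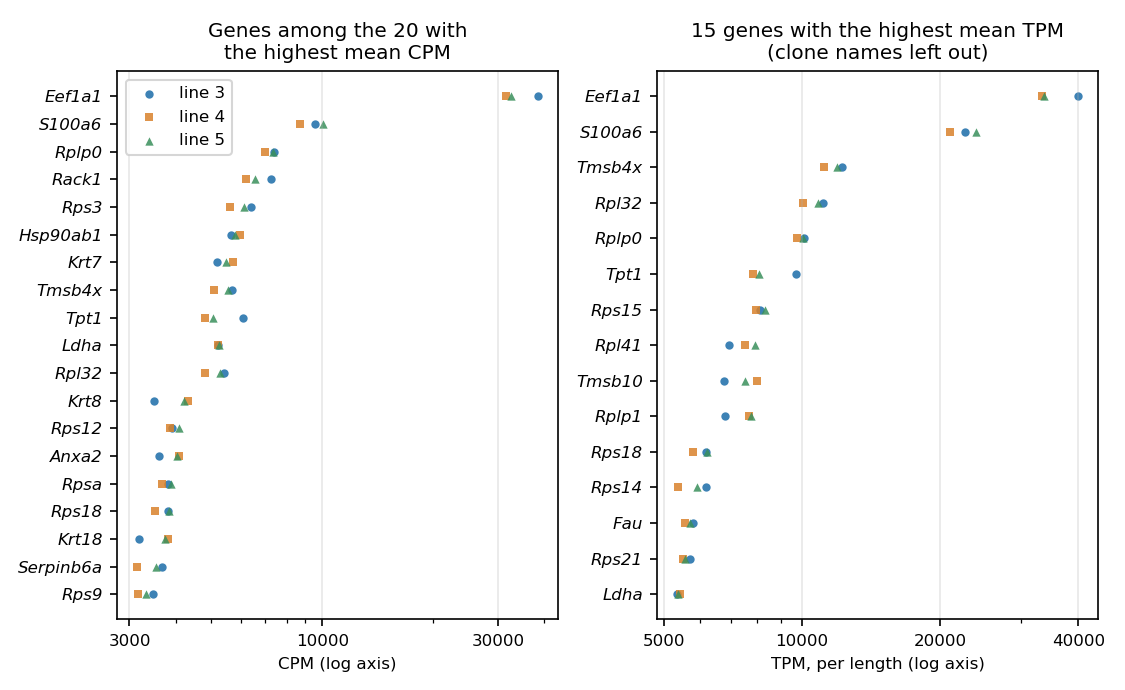
Genes among the 20 with the highest mean CPM (left) and the 15 with the highest mean TPM, genes known only by a clone name left out (right), in the untreated lines, each on a log axis, with 1 point per line (circle line 3, square line 4, triangle line 5). Eef1a1 at 31508 to 38402 CPM and S100a6 at 8703 to 10056 CPM lead, and the points of the 3 lines lie close together for each gene.

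Genes of simple epithelia were expressed at high levels. Of 38 genes of this list, which holds keratins, junction proteins and epithelial regulators, 28 reached 1 CPM in all 3 libraries and none was without a read, beside 25.1% of all identifiers and 52.3% of protein-coding genes. The median of the list was 25.9 CPM, and its summed level was 17125, 20131 and 19200 CPM in lines 3, 4 and 5. Krt7, on chromosome 15 (101411043 to 101430313), was at 5182, 5727 and 5468 CPM. Krt8 was at 3507, 4331 and 4222 CPM and its filament partner Krt18 at 3186, 3818 and 3734 CPM. Krt19 was at 2674, 3548 and 3270 CPM. The 4 keratins were lowest in line 3 and highest in line 4, by 1.11-fold for Krt7 and 1.33-fold for Krt19, and per length Krt18 had the highest mean with 4667 ± 472 TPM, followed by Krt8 with 3847 ± 448, Krt19 with 3763 ± 556 and Krt7 with 2499 ± 145 TPM. The intervals of 1 SD of Krt18, Krt8 and Krt19 overlap each other, while Krt7 lies below all 3 others by more than their SD. The place of Krt7 depends on the length used, that of its longest annotated transcript. This was 4094 bases, against 1437 for Krt18, 1576 for Krt19 and 1958 for Krt8. Which Krt7 transcript the cells make was not tested, and the SD does not cover this.

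Among the 54 keratin genes annotated, 12 (22.2%) reached 1 CPM in all libraries, beside 52.3% of protein-coding genes. Another 12 (22.2%) had no read, beside 25.3%. Krt20, a keratin of intestinal and gastric surface cells, was at 393, 365 and 360 CPM. Genes of junctions and of the epithelial surface were also expressed. F11r, the junctional adhesion molecule A gene, was at 540, 463 and 461 CPM, and Spint2, an inhibitor of serine proteases on epithelial surfaces, at 434, 460 and 440 CPM. Cdh1, the E-cadherin gene, was at 375, 452 and 385 CPM. Of 25 claudin genes, which encode tight junction strands, 7 (28%) reached 1 CPM and 8 (32%) had no read, beside the same 52.3% and 25.3%. Cldn2, whose product forms a cation pore, led the claudins at 350, 381 and 371 CPM. Some regulators of the list were low: Grhl1, Grhl2, Ovol1 and the splicing regulator Esrp1 all had means under 1 CPM, with Esrp1 at 0.0747, 0.198 and 0.0758 CPM, while its relative Esrp2 was at 24.2, 29.3 and 26.9 CPM. These 5 regulators were named after their values were seen.

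Of 27 genes of gut, liver and pancreas, 16 (59.3%) reached 1 CPM in all libraries, a share close to the 52.3% of all protein-coding genes, and 3 had no read, with a median of 5.95 CPM. Cdh17, the liver-intestine cadherin gene on chromosome 4 (11758147 to 11817895), led the list at 957, 1001 and 909 CPM, above Cdh1 per length (517 ± 29.9 against 171 ± 19.6 TPM). Lgals4, a galectin of the intestinal brush border, was at 567, 637 and 711 CPM. Cela1, a pancreatic elastase gene, was at 204, 147 and 159 CPM, and Vil1, which encodes villin of microvilli, at 128, 161 and 142 CPM. Gkn1, a gastric surface protein gene, was at 81.2, 82.9 and 92.6 CPM, and Afp, the fetal liver and yolk sac alpha-fetoprotein gene, at 47.4, 43.5 and 50.1 CPM. The structural and secreted products of the list are thus known from different organs. Among the transcription factors of the list, Hnf4a, a nuclear receptor of liver, kidney and gut on chromosome 2 (163506808 to 163572910), was at 137, 172 and 156 CPM. Cdx2, the intestinal homeobox gene, was at 33.4, 36 and 37.7 CPM. Hnf4a and Cdx2 were thus detected at levels well above 3 counts in every line. Cdx1, the relative of Cdx2, had no read in any library, nor had Ptf1a, the factor of pancreatic acinar cells, or Ins2, an insulin gene. Alb, the serum albumin gene of liver, was under 1 CPM on average, as were the trefoil factor genes Tff1 and Tff2 of stomach.

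Of 22 genes of lung cells, 9 (40.9%) reached 1 CPM in all libraries, beside 25.1% of all identifiers and 52.3% of protein-coding genes. Of the 22, 4 had no read, and the median was 0.127 CPM. Nkx2-1, the homeobox gene of lung and thyroid on chromosome 12 (56531958 to 56536908), had no read in any library. Sftpa1, a surfactant protein gene of alveolar type 2 cells, and Scgb3a2 and Cyp2f2 of airway secretory cells, were also without a read. The remaining surfactant genes Sftpb, Sftpc and Sftpd all had means under 1 CPM. Some of the genes of the list that were expressed are also known from other epithelia. Cldn18, a claudin of lung and stomach, was at 62.2, 62.8 and 60.6 CPM, and Muc1, a membrane mucin, at 39.4, 40.8 and 47.7 CPM. Foxa2 was at 23.9, 32.1 and 29.9 CPM and Foxa1 at 20.3, 20.9 and 21.3 CPM, both factors of endodermal organs in general. Abca3, a lipid transporter of lamellar bodies, was at 25.3, 34.4 and 24.9 CPM.

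**Figure D2:**
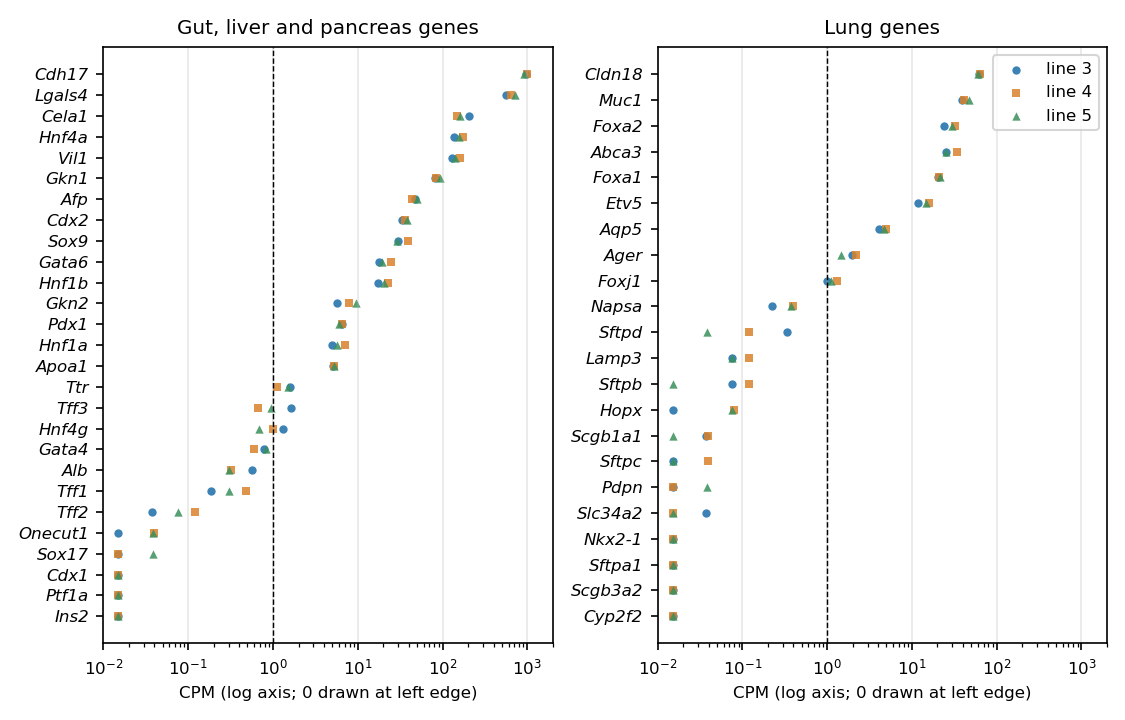
CPM on a log axis in the 3 untreated lines for 27 genes of gut, liver and pancreas (left) and 22 genes of lung (right), with 1 point per line; a value of 0 is drawn at the left edge, and the dashed line marks 1 CPM. Cdh17 lies at 909 to 1001 CPM on the left and Cldn18 at 60.6 to 62.8 CPM on the right, while Nkx2-1, Cdx1, Ptf1a and Ins2 are at 0 in all 3 lines.

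Promoter sequences are shown for Cela1, Krt20 and Cldn18, genes of the endodermal set with matches to short motifs. Cldn18 is shown with both annotated starts because counts per gene cannot say which start was used, and the gene is known to use a lung and a stomach promoter. The sequences are those of RefSeq (GRCm38.p6), run from 250 bases before to 50 bases after a start, and are written 5′ to 3′ on the gene's strand, which is the minus strand in each case. Capitals mark matches on either strand to AGATAA, a form of the motif of the Gata factor family, which reads TTATCT on the other strand. They also mark matches to TATAAA, the core element that the TATA-binding protein recognises. Other forms of the Gata motif were not searched and stay in lower case. No match to AGATAA overlaps a match to TATAAA here.
Cela1, chr15:100687871-100688170: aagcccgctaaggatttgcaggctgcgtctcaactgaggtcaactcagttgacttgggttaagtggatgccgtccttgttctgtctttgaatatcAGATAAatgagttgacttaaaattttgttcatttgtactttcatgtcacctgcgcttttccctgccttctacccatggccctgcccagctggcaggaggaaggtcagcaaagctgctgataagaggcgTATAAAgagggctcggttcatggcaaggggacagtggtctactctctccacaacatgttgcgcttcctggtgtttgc
Krt20, chr11:99438104-99438403: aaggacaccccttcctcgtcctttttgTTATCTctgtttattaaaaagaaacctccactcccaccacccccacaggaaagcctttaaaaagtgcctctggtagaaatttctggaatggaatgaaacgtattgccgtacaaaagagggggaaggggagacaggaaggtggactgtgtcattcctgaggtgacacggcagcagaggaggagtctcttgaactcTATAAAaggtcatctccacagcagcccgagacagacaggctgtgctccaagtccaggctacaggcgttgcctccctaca
Cldn18 upstream start, chr9:99717218-99717517: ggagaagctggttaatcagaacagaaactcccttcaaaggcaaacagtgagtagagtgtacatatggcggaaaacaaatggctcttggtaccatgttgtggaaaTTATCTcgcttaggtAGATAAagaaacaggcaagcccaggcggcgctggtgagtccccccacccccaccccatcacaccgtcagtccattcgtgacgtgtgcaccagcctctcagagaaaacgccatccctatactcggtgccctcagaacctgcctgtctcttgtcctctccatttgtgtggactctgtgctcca
Cldn18 downstream start, chr9:99710014-99710313: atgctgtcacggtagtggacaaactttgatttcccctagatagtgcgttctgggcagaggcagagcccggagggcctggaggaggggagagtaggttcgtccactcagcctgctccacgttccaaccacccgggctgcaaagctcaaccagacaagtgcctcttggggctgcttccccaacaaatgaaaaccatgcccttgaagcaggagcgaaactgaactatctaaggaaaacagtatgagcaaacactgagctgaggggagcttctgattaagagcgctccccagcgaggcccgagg

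For 15 expressed epithelial and endodermal genes searched, 12 had a window in the RefSeq table, with 16 windows in all. AGATAA was found in 7 of the 16 windows, beside 11.2% of all 32851 windows of this length, and TATAAA in 4, beside 13.6%. TTTATG, a CDX motif, was found in none (11.9% of all windows), CAAAGNNCA, an HNF4 motif, in 2 (6.36%), and TGTTTAC, a forkhead motif, in 1 (3.65%), each searched on both strands. The genes were chosen after their levels were seen, and a match describes these letters and not the binding of a factor.

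Of 35 genes of squamous and basal epithelium, 13 (37.1%) reached 1 CPM in all libraries, beside 25.1% of all identifiers and 52.3% of protein-coding genes. Of the 35, 5 had no read, and the median was 0.474 CPM. The factor genes Trp63 and Sox2 had no read in any library, nor had Dsg1a, Flg and Sprr2a1, genes of the outer layers of skin. Krt14, Krt15 and Krt17, keratins of basal cells, had means under 1 CPM. Several expressed genes of the list encode parts of the anchorage to the basement membrane, which simple epithelia also have. Itga6, the integrin alpha 6 gene, was at 431, 502 and 415 CPM, and Itgb4, its partner in hemidesmosomes, at 50.3, 70.04 and 54.1 CPM. Lamb3, a chain of laminin 332, was at 68.6, 100 and 87.3 CPM. Others have different roles: Perp, a gene of desmosomes, was at 312, 317 and 319 CPM, and Sprr1a, a cornified envelope gene also induced in injured epithelia, at 132, 119 and 109 CPM.

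Of 38 genes of mesenchyme and matrix, 20 (52.6%) reached 1 CPM in all libraries, about the same share as the 52.3% of all protein-coding genes, and 2 had no read, with a median of 2.40 CPM. Vim, the vimentin gene, was at 1467, 2307 and 1970 CPM, and its level per length, 1227 ± 280 TPM, was below that of each of the 4 leading keratins. Sparc, a matrix-binding glycoprotein gene, was at 266, 281 and 271 CPM, and Fn1, the fibronectin gene, at 286, 281 and 198 CPM. The genes of fibrillar collagen and of contractile fibroblasts were low: Col1a1, Col1a2, Col3a1, Acta2, Tagln and Postn had means under 1 CPM, and Myl9 and Lum had no read. Of 44 collagen genes 11 (25%) reached 1 CPM, beside 52.3% of protein-coding genes. The leading members were basement membrane collagens: Col18a1 was at 177, 238 and 203 CPM and Col4a1 at 83.5, 132 and 108 CPM. Of 11 laminin chain genes 7 (63.6%) reached 1 CPM, led by Lama5 at 287, 300 and 279 CPM. The E-cadherin and vimentin genes were thus expressed together in each of the 3 libraries.

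Most markers of other cell types that a culture could hold did not reach 1 CPM in all libraries, though some genes of blood cells did. Of 30 macrophage and myeloid genes 8 (26.7%) reached 1 CPM, beside 25.1% of all identifiers and 52.3% of protein-coding genes. The median was 0.345 CPM, and Cd163 had no read. A single gene, Mrc1, the macrophage mannose receptor gene, supplied most of the summed level, at 402, 390 and 344 CPM. Without it the other 29 genes summed to 76.1, 78.2 and 74.3 CPM. Defining genes of macrophages were near 0, with Adgre1 (F4/80) at 2 reads over the 3 libraries, and Itgam, Spi1, C1qa and Csf3r under 1 CPM, while Cd14 was at 22.5, 23.5 and 24.97 CPM and Ptprc, the gene of the leukocyte antigen CD45, at 9.98, 9.06 and 6.59 CPM.

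Of 28 lymphocyte genes 11 (39.3%) reached 1 CPM, beside 25.1% of all identifiers and 52.3% of protein-coding genes. None was without a read, and the median was 1.12 CPM. Trbc1, a constant segment of the T cell receptor, was at 8.37, 6.65 and 7.39 CPM, and Lck, a T cell kinase gene, at 5.91, 5.58 and 5.23 CPM. Trac was at 4.26, 6.13 and 4.96 CPM. The summed level of the list was 45.04 CPM in line 3 (95% Poisson interval 42.5 to 47.6), 49.8 in line 4 (47.1 to 52.6) and 35.05 in line 5 (32.8 to 37.4), intervals that cover counting error only. In such bulk libraries a small number of cells with much RNA of a gene and many cells with little cannot be told apart, and the source of these reads was not tested. The levels lie close to the 1 CPM threshold, so that the count of 11 becomes 19 at a minimum of 0.5 CPM and 4 at 2 CPM.

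The remaining lists each had at most 30% of their genes at 1 CPM in all libraries, beside 25.1% of all identifiers and 52.3% of protein-coding genes. The endothelial (28.6%), mesothelial (30%) and adipocyte (30%) lists lay between these 2 shares. Of 21 endothelial genes 6 reached 1 CPM, led by the receptor gene Flt1 at 23.7, 26.9 and 21.2 CPM, and Erg, Robo4, Sele and Sox18 had no read. Of 20 neural genes 4 reached 1 CPM, led by Nes, the nestin gene, at 124, 158 and 134 CPM, and 6 had no read. Of 20 muscle genes 4 reached 1 CPM, led by Tnnt2, the cardiac troponin T gene, at 96.4, 111 and 114 CPM, and 7 had no read, Myog and Myf5 included. Of 10 mesothelial genes 3 reached 1 CPM, Krt19, Efemp1 and Msln. Msln, the mesothelin gene, was at 969, 1016 and 1088 CPM, whereas Wt1, Calb2 and Rspo1 were at 1 read or none over the 3 libraries. Of 10 adipocyte genes 3 reached 1 CPM, among them Pparg, a nuclear receptor of fat and epithelial cells, at 72.02, 67.04 and 65.8 CPM. Of 14 neuroendocrine genes 3 reached 1 CPM, and Neurod1 had no read. Of 12 red cell and platelet genes 2 reached 1 CPM, and of 8 pigment cell genes and 20 germ line and pluripotency genes none did, with 9 of the latter, Nanog included, without a read.

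**Figure D3:**
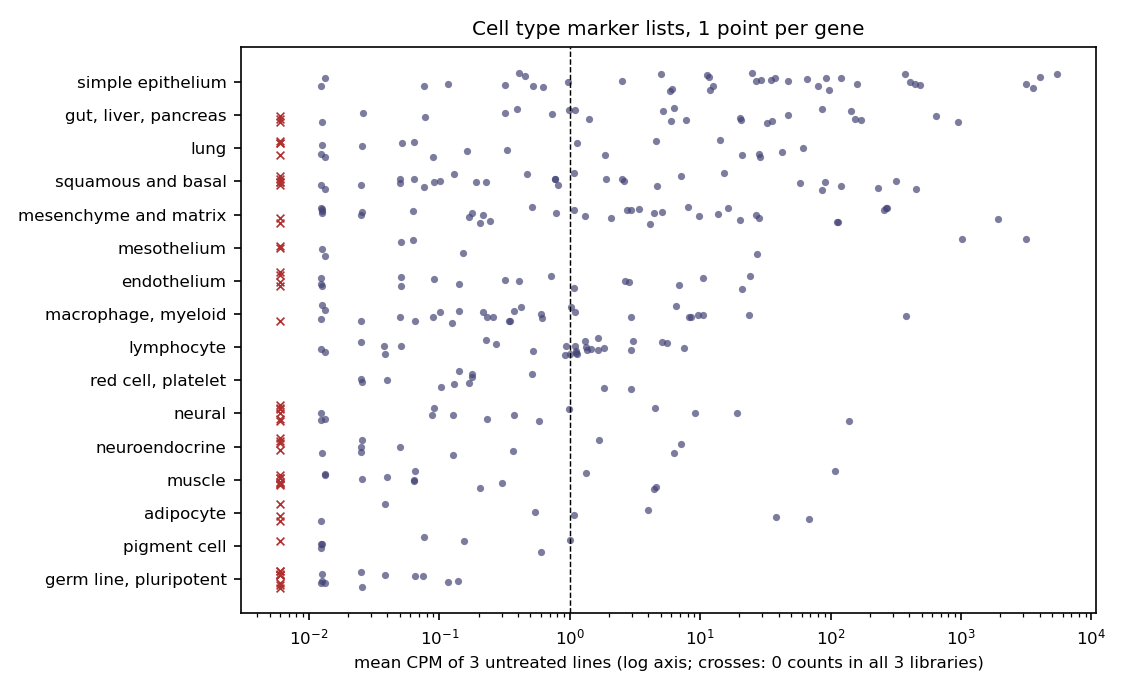
Mean CPM over the 3 untreated lines (log axis) of each gene in 16 cell type marker lists, with 1 point per gene, crosses for genes with 0 counts in all 3 libraries, and a dashed line at 1 CPM. The simple epithelium list has its median at 25.9 CPM, and the germ line and pluripotent list lies wholly below 1 CPM.

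All 32 genes of the Ras pathway and the p53 pathway that were listed reached 1 CPM in every library, beside 52.3% of protein-coding genes. The median was 54.4 CPM, and the genes were chosen with earlier results of these data known. Cdkn2a, on chromosome 4 (89274471 to 89294653), which encodes the cell cycle inhibitor p16 and the p53 activator p19ARF from overlapping frames, led the list at 453, 467 and 455 CPM. Its neighbour Cdkn2b, another inhibitor, was at 153, 140 and 138 CPM. Counts per gene do not separate the products of Cdkn2a. Nras, a Ras gene, was at 152, 160 and 161 CPM. Trp53, the p53 gene on chromosome 11 (69580359 to 69591873), was at 7.85, 8.43 and 7.502 CPM. Its level per length was 4.54 ± 0.313 TPM. Targets and feedback genes of the kinase cascade were also expressed. Ccnd1, the cyclin D1 gene, was at 340, 500 and 439 CPM, and Dusp6, a phosphatase of ERK, at 400, 458 and 407 CPM. Myc was at 137, 172 and 175 CPM.

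Of 30 receptor tyrosine kinase genes 17 (56.7%) reached 1 CPM in all libraries, close to the 52.3% of all protein-coding genes, with a median of 2.43 CPM, and Erbb4 and Ntrk2 had no read. Axl, the receptor for Gas6, led at 322, 390 and 342 CPM. Epha2, an ephrin receptor gene, was at 158, 202 and 191 CPM, and Met, the receptor for hepatocyte growth factor, at 78.8, 90.1 and 67.7 CPM. Of the ErbB family, Erbb2 was at 34.6, 46.6 and 41.9 CPM and Erbb3 at 33.1, 37.2 and 29.5 CPM. Per length Axl had 154 ± 16.9 TPM, Erbb2 15.3 ± 2.37 TPM and Erbb3 10.4 ± 1.30 TPM. Of 48 growth factor and cytokine genes 32 (66.7%) reached 1 CPM, beside the same 52.3%, with a median of 4.09 CPM. Of the 48, 5 had a mean of 100 CPM or more. These were Mif, Vegfa, Kitl and the ErbB ligands Btc and Areg. Btc was at 183, 151 and 145 CPM and Areg at 123, 137 and 128 CPM. Of 23 genes of antigen presentation and immune checkpoints 18 (78.3%) reached 1 CPM, also beside 52.3%. H2-D1, a class I gene, was at 183, 229 and 219 CPM, and the class II genes H2-Aa and H2-Ab1 and their activator Ciita had means under 1 CPM. Class I genes are near-identical copies of each other, and reads that align to more than 1 of them were not counted.

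Of 87 transcription factor genes 64 (73.6%) reached 1 CPM in all libraries, beside 52.3% of protein-coding genes. Of the 87, 8 had no read, and the median was 19.7 CPM. Atf4, a factor of the amino acid and stress response, was at 443, 468 and 527 CPM. The high mobility group genes Hmga2 and Hmga1, which are active in embryos and in many tumors, were at 380, 418 and 390 CPM and at 308, 440 and 398 CPM. Klf6 was at 433, 371 and 342 CPM, Junb at 287, 358 and 285 CPM and Id2, an inhibitor of helix-loop-helix factors, at 365, 271 and 283 CPM. Junb and Hmga1 were highest in line 4, Klf6 and Id2 in line 3. Among the genes without a read were Trp63, Sox2, Tfap2c, Pitx1, Lhx2, Otx1 and Pgr. Among 39 Hox genes, which mark position along the body axis, 5 reached 1 CPM and 23 had no read. The 5 Hox genes at 1 CPM all belong to the HoxB cluster: Hoxb7 was at 11.1, 10.9 and 10.2 CPM, Hoxb6 at 7.44, 6.81 and 7.65 CPM and Hoxb8 at 2.69, 2.49 and 3.41 CPM, followed by Hoxb4 and Hoxb5. Of 19 Sox genes 4 (21.1%) reached 1 CPM, with Sox4 at 87.9 ± 17.4 CPM and Sox9 at 32.6 ± 5.81 CPM (SD, n = 3 each).

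All 28 cell cycle genes, 33 of 34 genes of glycolysis and redox metabolism and 17 of 18 nucleolar genes reached 1 CPM in every library. The share of all protein-coding genes was 52.3%, and these lists were chosen with earlier results of these data known. Their medians were 79.3, 189 and 87.5 CPM. Ldha, the lactate dehydrogenase A gene, was at 5216, 5206 and 5235 CPM. Its relative Ldhb had a mean under 1 CPM. Npm1 itself (chromosome 11, 33152287 to 33163206) was at 1943, 1869 and 1899 CPM, a mean of 1904 ± 37.2 CPM (SD, n = 3), and led the nucleolar list. Ncl, the nucleolin gene, was at 439, 544 and 517 CPM, and per length Npm1 was also above it (2184 ± 30.96 against 114 ± 13.1 TPM). The size of this gap per length depends on the longest annotated transcript of each gene, and which Ncl transcript the cells make was not tested. The level of the gene that the hairpins target was thus within 1.04-fold between the lines. Genes of the Y chromosome were expressed: Eif2s3y was at 118, 102 and 107 CPM, Ddx3y at 102, 85.7 and 72.7 CPM, and Xist, the RNA that coats an inactive X chromosome, at 1.12, 1.66 and 1.06 CPM.

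Levels differed little between the lines. The common biological coefficient of variation, the relative spread beyond counting error, was 9.78% over 13677 genes (edgeR), and was 6.74% without line 3 and 11.9% without line 5. For the 3683 genes with a mean of 50 CPM or more, the median coefficient of variation over lines was 6.75% (quartiles 4.25% and 10.3%), where counting error alone would give a median of 1.95%. Of 10157 genes with a mean of 5 CPM or more, the highest line exceeded the lowest by a median of 1.17-fold. At least 1.5-fold separated them for 377 genes (3.71%) and at least 2-fold for 12 (0.118%). Lines 4 and 5 were closest, with 27 genes at least 1.5-fold apart, against 155 for lines 3 and 5 and 291 for lines 3 and 4. Without line 3, 2 genes were at least 2-fold apart in place of 12, without line 4, 6, and without line 5, 10.

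Gc, which encodes the vitamin D binding protein made by liver, differed most, at 19.3, 6.49 and 5.57 CPM, or 3.46-fold. Ugt2b36, a glucuronosyltransferase gene of liver, was at 7.81, 3.17 and 4.40 CPM, and Cfi, a complement factor gene, at 10.8, 5.30 and 6.14 CPM. Pamr1 was at 10.3, 4.00 and 4.51 CPM and Pdzk1ip1 at 9.08, 3.56 and 5.57 CPM. These 5 genes were highest in line 3. Plk1, a mitotic kinase gene, was at 13.8, 31.7 and 30.05 CPM, E2f8, a repressor of the cell cycle, at 3.89, 10.01 and 8.37 CPM, and Sec24d, a coat protein gene of export vesicles, at 9.42, 19.4 and 15.4 CPM. AI506816, known only by a clone name, was at 9.90, 19.11 and 19.8 CPM. These 4 were lowest in line 3. Adm, the adrenomedullin gene, was at 12.4, 13.5 and 5.12 CPM and Rac2, a small GTPase gene of blood cells, at 5.72, 6.96 and 3.33 CPM, both lowest in line 5. Gm28437, a clone name on chromosome 1 annotated as an unprocessed pseudogene, was the twelfth, at 10.9, 5.42 and 7.99 CPM. Line 3 stood at least 2-fold above both other lines for 2 genes (0.0197%) and below them for 2 (0.0197%), line 5 below for 1 (0.00985%), and line 4 for none. At 1.5-fold, line 3 stood below both others for 64 genes (0.630%) and above them for 24 (0.236%), line 4 above them for 2 (0.0197%) and below them for 1 (0.00985%), and line 5 above them for 1 (0.00985%) and below them for 4 (0.0394%).

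**Figure D4:**
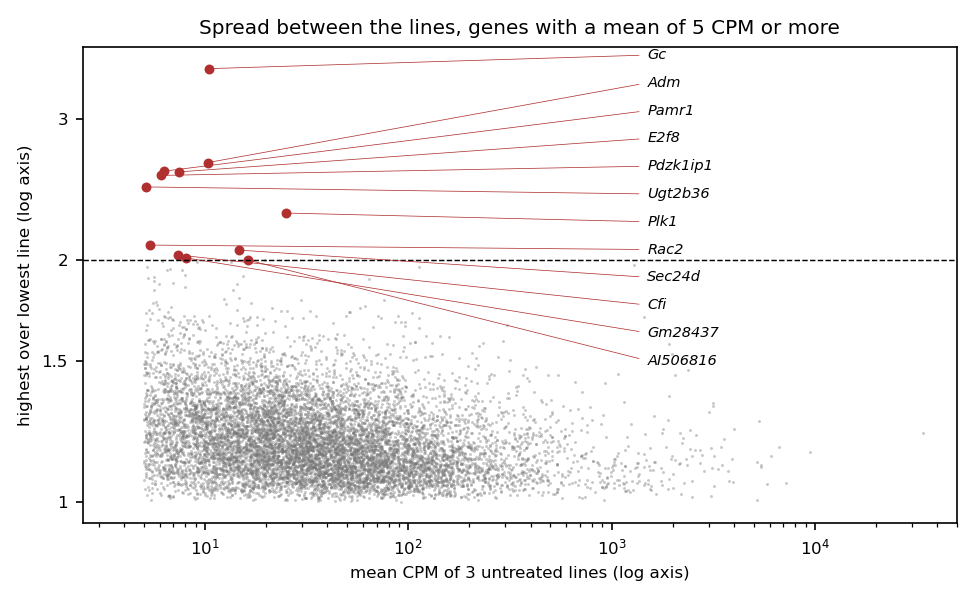
Ratio of the highest to the lowest untreated line (log axis) against mean CPM (log axis) for 10157 genes with a mean of 5 CPM or more, with 1 point per gene. The dashed line marks 2-fold, and the 12 named genes at or above it include Gc at 3.46-fold, while the median of all points is 1.17-fold.

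At the other end, Ubxn4, an endoplasmic reticulum protein gene, was at 91.7, 91.7 and 91.8 CPM, and Ppp1ca, a protein phosphatase subunit gene, at 924, 918 and 922 CPM. Ldha, Ddc, Prpf4b, Pitpnb, Srsf1 and Etf1 completed the 8 genes with the smallest coefficient of variation, all under 0.5%. They were picked as the extreme of 3683 genes, so that so small a spread describes these libraries only.

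The cell cycle genes were lower in line 3. Of 28 listed genes 25 were lowest in line 3, beside 48.9% of the 10157 genes with a mean of 5 CPM or more, and their median log2 ratio of line 3 to the mean of the other lines was -0.44, beside -0.06 over all these genes. Plk1 showed the widest gap, with the values above. Ube2c, an enzyme of the anaphase-promoting complex, was at 79.4, 129 and 131 CPM. The replication helicase genes Mcm2 and Mcm5 were at 69.03, 114 and 107 CPM and at 79.7, 120 and 118 CPM. Ccnb1, the cyclin B1 gene, was at 100, 132 and 136 CPM. Lines 4 and 5 lay close together for each of these genes, and line 3 lay below both. Pcna, at 289, 300 and 306 CPM, and Cdk4, at 885, 922 and 939 CPM, had the same order with a narrow gap, and Cdk6, Ccne1 and Ccne2 were not lowest in line 3. The count was 24 with TMM-scaled values, beside 42.2% of all genes, and 23 with DESeq2-scaled values, beside 40.97%. Plk1 was 2.29-fold apart between line 3 and line 4.

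**Figure D5:**
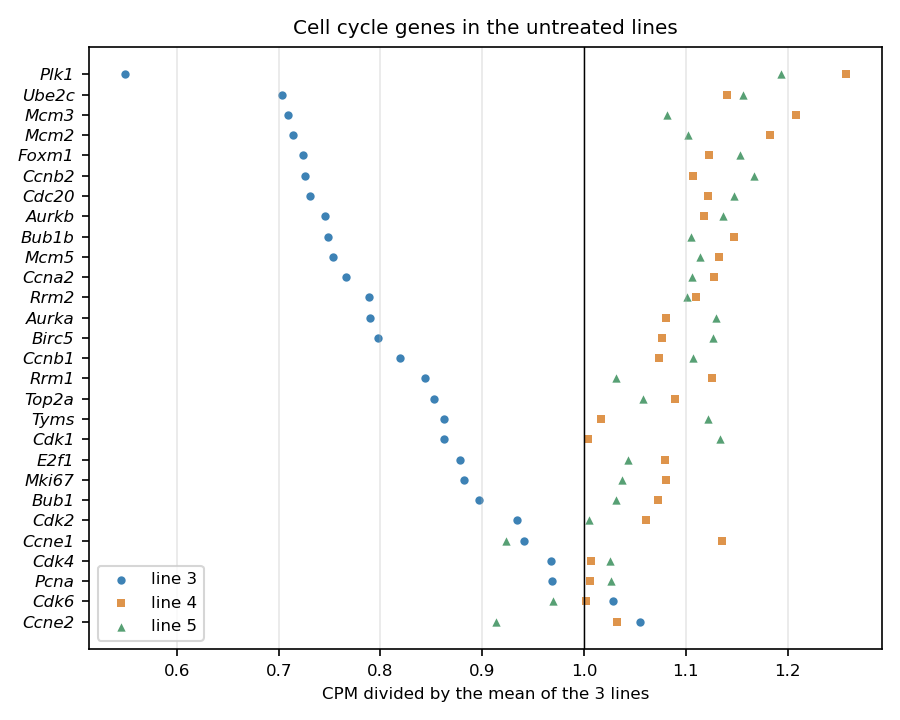
CPM of 28 cell cycle genes in each untreated line divided by the gene's mean over the 3 lines, ordered by the ratio of line 3 to the other lines (circle line 3, square line 4, triangle line 5). Line 3 is lowest for 25 of the 28 genes, with Plk1 at 13.8 CPM in line 3 against 31.7 and 30.05 CPM.

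By gene totals line 4 was the most frequent highest line over all genes, and for several lists its share was larger still. Over all genes this lead depended on the scaling. Line 3 was highest for 35.9% of all genes with TMM scaling and for 37.2% with DESeq2 size factors, above line 4 in the latter. It was highest for 12 of 13 receptor tyrosine kinase genes with a mean of 5 CPM or more, for 44 of 60 transcription factor genes, 24 of 32 genes of the Ras and p53 pathways, 20 of 26 simple epithelium genes and 8 of 14 mesenchyme and matrix genes, beside 46.1% of all genes at that level. With TMM scaling these counts were 10, 40, 20, 19 and 7 in the same order, beside 37.5% of all genes, and with DESeq2 size factors 10, 40, 19, 17 and 7, beside 35.8%. Of these lists, mesenchyme and matrix lay nearest to the share of all genes. The lean was not special to them. By gene totals line 4 was also highest for 8 of 11 antigen presentation and checkpoint genes and 9 of 15 gut, liver and pancreas genes. The same held for 12 of 20 growth factor genes and 18 of 31 glycolysis and redox genes. It was highest for 4 of 9 squamous and basal genes and 0 of 7 macrophage and myeloid genes. The 5 lists named first had a higher median transcript length or GC content than all genes, with mesenchyme and matrix at 49.7% GC beside 49.4%. The lines also differed by such properties over all genes. Among genes of the top quartile of transcript length line 4 was highest for 64.1%, and in the top quartile of GC content for 60.7%, with a median log2 ratio to the other lines of 0.14 in each. In the latter quartile line 3 had a median of -0.21. The receptor genes had a median GC content of 54.2% and a median length of 4722 bases, beside 49.4% and 3396 bases over all genes, and the part of these properties in the result was not tested. The cell cycle genes had a median GC content of 49.04% and a median length of 3135 bases, beside the same values over all genes. The part of these properties in their counts was not tested either. Among 22 lymphocyte genes with a mean of 0.2 CPM or more, line 5 was lowest for 15, beside 28.9% of all genes at that level, with a median log2 ratio of -0.68.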

How the data were processed

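Per the labels' protocols, RNA was isolated with a column kit from 3 untreated stable lines. The values the authors deposited are whole-number read counts per Ensembl gene identifier. The submitters' processing notes name STAR, HTSeq, Picard, CASAVA, bedtools, DESeq2, R 3.3.0 and mm10. With annotation release and strand setting not given in the sources used here, overlapping genes cannot be told apart. The 5 rows that name no gene were left out (45% to 46% of reads). Symbols were found for 48144 of 48526 identifiers in GENCODE M21, whose longest transcript gave the length for TPM and GC content. CPM used gene totals. The coefficient of variation came from edgeR 4.0.16 in R 4.3.3 (filterByExpr, TMM, intercept only), and the procedure was checked on simulated data. No test was run. Folds were taken among genes with a mean of 5 CPM or more.

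The members and the 25 lists and 24 families were chosen with earlier results of these data known. Named were Npm1, Trp53 and Cdkn2a, the first 20 genes by CPM and 15 by TPM, up to 8 members of each list by level and up to 6 without a read, up to 5 of each family, up to 8 genes above and below in each line, and the 8 with the smallest coefficient of variation. Some genes that this rule names are not reported here. Other list members were named by their level band or after their values were seen. Alternatives were TMM scaling, DESeq2 1.42.0 size factors, other level minimums and folds, ranking per length, and each line left out. Lines compared by list under other scalings, and the motif search, were added after the data were seen.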

Additional observations from a re-analysis of the deposited data

How the results depend on the processing

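No paired analysis was possible because only untreated libraries were used and no result comes from a test. Of the 20 genes first by CPM, 10 were kept when ranked per length, and 18 to 20 when a line was left out. Lymphocyte genes at 1 CPM (11) numbered 19 at 0.5 CPM, 4 at 2 CPM and 19 where 1 library sufficed, and red cell and platelet genes (2) numbered 1 at 2 CPM. Pigment cell genes (0) numbered 2 at 0.5 CPM, 1 where 1 library sufficed, and 0 to 1 when a line was left out. The coefficient of variation (9.78%) ranged from 6.74% to 11.9% when a line was left out. The 12 genes at least 2-fold apart numbered 377 at 1.5-fold, 1 at 3-fold, 167 at a mean of 1 CPM, 5 at a mean of 10 CPM, 74 with no minimum and 0.5 CPM added to each value, and 2 to 10 when a line was left out. The 5 genes with 1 line at least 2-fold beyond both others numbered 96 at 1.5-fold, 0 at 3-fold, 48 at a mean of 1 CPM and 3 at a mean of 10 CPM. The cause of these moves was not tested beyond the settings' own construction. Of 5010 mean CPM values of 1002 listed genes, 3 moved by more than 1 SD, those of Ldha, Ubxn4 and Ddc under DESeq2 size factors, and no scaling moved a mean by more than 1.13%. A floor of 3 counts, or 0.112 to 0.119 CPM, limits what a library can show.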

Other observations

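The genes encoded by the mitochondrial genome were unevenly counted. Of 13 protein genes, 7 (53.8%) reached 1 CPM in all libraries, beside 52.3% of protein-coding genes. mt-Co1, a subunit of cytochrome c oxidase, was at 2465, 1613 and 1863 CPM in lines 3, 4 and 5, and mt-Cytb at 570, 426 and 523 CPM, while mt-Co3, a subunit of the same oxidase, was at 0.448, 0.396 and 0.455 CPM. Reads aligned to more than 1 place are not counted for any gene, and their part in this was not tested. Line 3 was the highest and line 4 the lowest for mt-Co1, mt-Cytb, mt-Nd1, mt-Nd5 and mt-Nd2. The ribosomal RNA gene CT010467.1 was at 1021, 957 and 1890 CPM, about as high in line 3 as in line 4 and 1.97-fold higher in line 5 than in line 4.

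Families of surface proteins were led by few members. Of 12 annexin genes all 12 reached 1 CPM, beside 52.3% of protein-coding genes. Anxa2 was at 3612, 4083 and 4047 CPM and Anxa1 at 2494, 2077 and 2202 CPM. Of 8 galectin genes 7 (87.5%) reached 1 CPM, and of 20 tetraspanin genes 15 (75%), led by Tspan8 at 1631, 1342 and 1392 CPM. Of 13 mucin genes, Muc1 alone (7.69%) reached 1 CPM in all libraries. Of 1075 olfactory receptor genes none did and 1032 (96%) had no read, beside 25.3% of protein-coding genes. Of 294 vomeronasal receptor genes Vmn2r79 alone reached 1 CPM, at 5.08, 3.80 and 4.58 CPM.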
